A study of Mus musculus with 21 samples.

Results

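The homing and adhesion genes Cxcr4, Cxcr2, Selplg, Cd44, Itga4, Itgb1, Itgb2, Itgam and Itgal were followed through sorted BM and spleen cells of a mouse model of juvenile myelomonocytic leukemia. They were picked by name as molecules that carry leukocytes through vessel walls and into tissues, and are 9 of 45706 genes in the count tables. All 9 passed the filter on low counts and are among the 19555 genes tested.

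RNA was sequenced in 21 libraries from 3 fractions: LSK cells, that is lineage-depleted Sca1+ and cKit+ stem and progenitor cells sorted from BM, and CD11b+ cells purified on magnetic columns from either BM or spleen. Every fraction holds 2 libraries of MxCre mice, which carry Cre only, 2 of Ptpn11D61Y/+ mice, which carry the mutant allele behind a Stop cassette without Cre, and 3 of terminally ill leukemic MxCre;Ptpn11D61Y/+ mice, called S3. In S3 mice Cre, driven by the interferon-responsive Mx1 promoter, removes the cassette and the activating D61Y form of the phosphatase SHP2 is made. By the study's methods the mice received poly I:C, which turns this promoter on. The Mx1 promoter is not limited to blood cells. Ages are not in the labels used here. The S3 libraries came from animals 540 and 815 in all 3 fractions, with animal 640 as the third in BM and spleen CD11b+ cells and animal 768 as the third in LSK cells. Libraries held between 34992610 and 104509425 counts. Levels are log2 CPM, read counts relative to the scaled size of each library.

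Leukocytes leave the marrow, roll, arrest and cross a vessel wall by a fixed sequence of surface molecules. CXCR4, the receptor for CXCL12, keeps stem cells and neutrophils in the marrow, whereas CXCR2, the receptor for CXCL1 and CXCL2, draws neutrophils out of it. PSGL-1, the product of Selplg, binds selectins during rolling, and CD44 binds hyaluronan and, in some glycoforms, selectins. Firm arrest is the work of integrins: α4 (Itga4) pairs with β1 (Itgb1) to form VLA-4, which binds VCAM-1 and fibronectin, and β2 (Itgb2) pairs with αM (Itgam, the CD11b antigen of the sort) to form Mac-1 and with αL (Itgal) to form LFA-1, a receptor for ICAM-1. In bulk samples like these, fewer cells of a type and less RNA per cell cannot be told apart.

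Several libraries stood apart, and this touches every result that follows. Xist, a transcript of female cells, and 4 Y-linked genes were found together in 3 libraries: BM CD11b+ of MxCre replicate 2, BM CD11b+ of S3 animal 540 and spleen CD11b+ of S3 animal 540. The LSK library labelled 540 held 1 Xist count and 15172 Y-linked counts. The spleen library labelled Ptpn11D61Y/+ replicate 1 held 4753 Xist counts and 0 Y-linked counts, whereas the LSK and BM libraries with that number were Y-linked. Whether libraries with both kinds of transcript hold RNA of more than 1 mouse, and whether a label was exchanged, was not tested, so values of these libraries may not belong to the animal on the label. Animals 815 and 640 matched in both of their CD11b+ libraries. The number of genes detected was low, at 14885, 14641 and 14761, in BM MxCre replicate 1, spleen MxCre replicate 1 and BM S3 animal 815, against at least 17493 in every other library.

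Of the sort markers, Kit and Itgam followed the labels and Ly6a, the gene of Sca1, did not. Kit reached between 287.8 and 532.6 CPM in the LSK libraries and at most 73.2 CPM in any CD11b+ library. Itgam reached between 31.6 and 114.2 CPM in LSK cells and between 150.7 and 1665 CPM in CD11b+ cells. Ly6a lay between 42.5 and 76.1 CPM in LSK cells, and was above that range in 5 CD11b+ libraries: 313.2 and 238.2 CPM in spleen and BM of S3 animal 815, 145.0 in the spleen of S3 animal 540, and 157.9 and 125.6 in the Ptpn11D61Y/+ spleens. The summed level of 12 markers of mature neutrophils was 71320 and 134600 CPM in spleen CD11b+ cells of MxCre mice and 95800, 43800 and 42690 CPM in those of S3 animals 540, 815 and 640. It was 4653 and 8631 CPM in spleen CD11b+ cells of Ptpn11D61Y/+ mice. S100a9 was the most abundant of these markers in every spleen library but that of animal 640, where Ngp led, and no marker of the list was at 0 there. The sum hides differences between its markers. Il1r2 was at 2316 and 5538 CPM in MxCre spleens, 141.0, 78.2 and 75.7 in S3 animals 540, 815 and 640, and 85.4 and 178.0 in Ptpn11D61Y/+. S100a9, Ltf and Ly6g, by contrast, overlapped between MxCre and S3 spleens. B cell markers summed to 21200 and 7818 CPM in the same Ptpn11D61Y/+ libraries, led by Ighm, against 2588 and 556 CPM in MxCre. Monocyte and macrophage markers ranged from 7825 to 13670 CPM over the 7 spleen libraries, with different leading genes. In the MxCre spleens Nr4a1 led, at 5366 CPM of 13670 and 3860 of 11710. C1qb led in S3 animals 540 and 640, at 2189 and 1527 CPM, and C1qa in animal 815, at 3097. In Ptpn11D61Y/+ spleens C1qb led in replicate 1 and Nr4a1 in replicate 2, at 1063 and 2895 CPM. Erythroid markers, led by globin genes, summed to 14780, 15990 and 30610 CPM in the S3 spleens of animals 540, 815 and 640, to 3440 and 1166 CPM in MxCre and to 5259 and 1162 CPM in Ptpn11D61Y/+ spleens. The part of this makeup in the differences between groups was not tested.

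**Figure D1:**
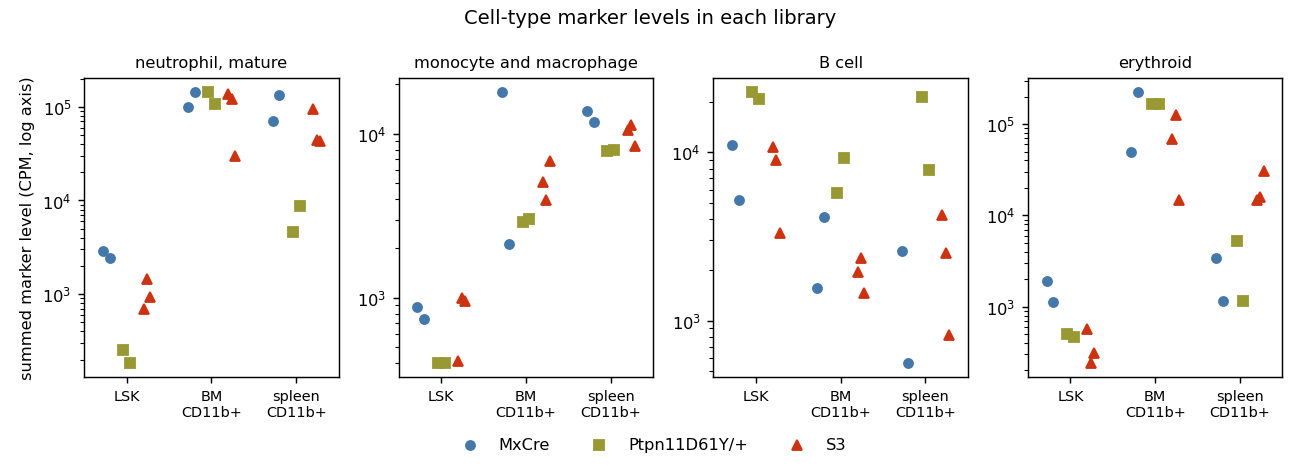
Summed CPM (log axis) of 4 marker lists in every library, by sorted fraction and genotype, each point being 1 library. The 2 spleen CD11b+ libraries of Ptpn11D61Y/+ mice lie at 4653 and 8631 CPM of mature neutrophil markers, below all 5 other spleen libraries.

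The genes lie on 6 chromosomes (GRCm38): Cxcr4 on chromosome 1 from 128588199 to 128592293, Cxcr2 on chromosome 1 from 74153989 to 74161246, Selplg on chromosome 5 from 113818536 to 113832644, Cd44 on chromosome 2 from 102811141 to 102901665, Itga4 on chromosome 2 from 79255426 to 79333123, Itgb1 on chromosome 8 from 128685654 to 128733200, Itgb2 on chromosome 10 from 77530252 to 77565708, Itgam on chromosome 7 from 128062640 to 128118491, and Itgal on chromosome 7 from 127296260 to 127335138. Reads were counted over genes. Itgam shares its strand with the overlapping gene Gm49368, which is not analysed here, and Itga4 and Cd44 each overlap a gene on the other strand, so that their counts can hold reads of those genes.

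The 250 bases before the start of 4 members are shown, since Cxcr4, Cxcr2 and Cd44 carry the differences between spleens described below and Itgam is the sort marker. They were taken from RefSeq (GRCm38.p6) and are written 5′ to 3′ on the strand of the gene. Promoters of 6 of the 9 members were matched in that table. Capitals mark GAGGAA, the core that the myeloid factor PU.1 and its relatives bind, searched on both strands, so that TTCCTC is the same motif read from the other strand. The AP-1 motif TGANTCA and the NF-kB motif were searched in the same way.
Cxcr4, chr1:128592300-128592549, minus strand: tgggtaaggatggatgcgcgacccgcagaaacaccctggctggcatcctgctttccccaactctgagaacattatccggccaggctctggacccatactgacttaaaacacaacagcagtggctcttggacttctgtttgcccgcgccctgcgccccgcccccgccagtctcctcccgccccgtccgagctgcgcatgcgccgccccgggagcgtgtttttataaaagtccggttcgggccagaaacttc
Cxcr2, chr1:74153744-74153993, plus strand: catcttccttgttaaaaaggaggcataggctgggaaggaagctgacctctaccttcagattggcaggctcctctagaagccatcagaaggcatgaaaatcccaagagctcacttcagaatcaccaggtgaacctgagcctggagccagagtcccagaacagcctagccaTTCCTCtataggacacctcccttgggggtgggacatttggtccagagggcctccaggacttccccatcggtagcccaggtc
Cd44, chr2:102901666-102901915, minus strand: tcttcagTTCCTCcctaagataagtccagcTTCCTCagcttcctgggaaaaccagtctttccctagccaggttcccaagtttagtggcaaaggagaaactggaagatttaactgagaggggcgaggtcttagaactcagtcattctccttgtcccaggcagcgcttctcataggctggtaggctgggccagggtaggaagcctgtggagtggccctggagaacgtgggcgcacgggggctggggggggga
Itgam, chr7:128062390-128062639, plus strand: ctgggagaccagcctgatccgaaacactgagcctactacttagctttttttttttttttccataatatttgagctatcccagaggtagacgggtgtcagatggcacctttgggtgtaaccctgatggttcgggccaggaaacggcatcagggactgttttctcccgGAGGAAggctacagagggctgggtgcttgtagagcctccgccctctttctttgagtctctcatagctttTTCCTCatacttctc

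GAGGAA occurred 2 times each in the Itgam and Cd44 windows, 1 time in the Cxcr2 window and 0 times in the Cxcr4 window. In Itgam the nearest copy began 15 bases before the start. The motif was present in 23.3% of all 32851 promoters of this length, so these matches are a description and not sites of binding. TGANTCA, found in 6.75% of all promoters, and the NF-kB motif, found in 0.356%, had 0 matches in the 6 windows, which says only that these letters are not there. The Cxcr4 window was the richest of the 4 in G and C, at 61.2%, and the Itgam window the poorest, at 49.6%.

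Compared per length, that is as CPM per kilobase of exon, the members differed widely in level. In LSK cells Cxcr4, Selplg and Itgb1 led, with means of 46.7, 46.0 and 42.9 CPM per kb, and Cxcr2 was lowest at 3.79, averaged over genotypes. Itgb1 led in Ptpn11D61Y/+ LSK cells (39.4 CPM per kb, with Cxcr4 at 34.2), and in S3 Itgb2 (49.8) stood just above Itgb1 (49.3). Averaged over genotypes, in CD11b+ cells of the BM Cxcr4 and Itgb2 led at 275.3 and 221.0 CPM per kb, and Itga4 was lowest at 5.16. In CD11b+ cells of the spleen the same genes held these places, with 319.1 CPM per kb for Cxcr4, 255.6 for Itgb2 and 8.01 for Itga4. The lead differed by genotype. In BM Cxcr4 led in MxCre and Ptpn11D61Y/+ (355.6 and 330.4 CPM per kb) and Itgb2 in S3 (248.1, with Cxcr4 at 185.0). In spleen Cxcr4 led only in MxCre, at 758.9 CPM per kb, while Itgb2 led in Ptpn11D61Y/+ (180.9, with Cxcr4 at 168.4) and in S3 (350.4), where Cxcr4 was in place 4 at 126.5. Averaged over genotypes, Cxcr4 exceeded 98.8% of 19455 genes compared per length in spleen CD11b+ cells and Itga4 exceeded 74.0%.

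**Figure D2:**
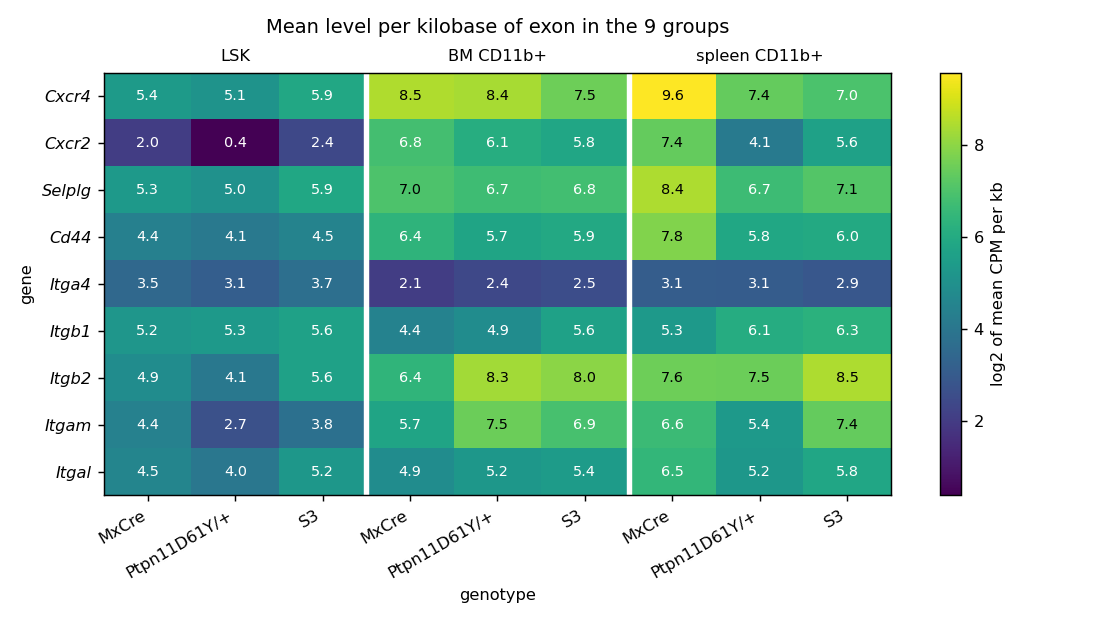
Log2 of the mean CPM per kb of exon of each gene (rows) in the 9 groups (columns), n = 2 or 3 libraries a group. Cxcr4 in spleen CD11b+ cells of MxCre mice is the highest cell, and Cxcr2 in LSK cells of Ptpn11D61Y/+ mice the lowest.

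Cxcr4 was lower in the spleen CD11b+ cells of S3 mice than in those of MxCre mice. Its levels were 10.16 and 10.65 log2 CPM in the MxCre spleens, 8.22, 7.65 and 7.54 in the spleens of S3 animals 540, 815 and 640, and 7.10 and 8.88 in the Ptpn11D61Y/+ spleens. Every S3 and every Ptpn11D61Y/+ library lay below both MxCre libraries. The fall in S3 was 2.59 on the log2 scale (SE 0.45, 6.0-fold, adjusted p = 0.00876, quasi-likelihood test of edgeR, adjusted by Benjamini-Hochberg). In the Ptpn11D61Y/+ spleens Cxcr4 fell by 2.17 against the same MxCre libraries (SE 0.52, adjusted p = 0.0288, edgeR). That call was lost without MxCre replicate 2 (difference -1.90) or Ptpn11D61Y/+ replicate 1 (difference -1.51). Over the alternatives the difference ran from -3.31 to -1.51. S3 and Ptpn11D61Y/+ spleens overlapped and differed by -0.41 with a 95% interval from -1.36 to 0.54, and by 0.74 without Ptpn11D61Y/+ replicate 2.

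Cd44 behaved in the same way with less scatter. It stood at 10.32 and 10.80 log2 CPM in the MxCre spleens, at 8.76, 8.59 and 8.80 in the S3 spleens and at 8.46 and 8.74 in the Ptpn11D61Y/+ spleens, so that the MxCre spleens were high and all 5 others lay within a narrow band. Cd44 fell by 1.86 in S3 (SE 0.30, 3.63-fold, adjusted p = 0.0061, edgeR) and by 1.98 in Ptpn11D61Y/+ (SE 0.34, adjusted p = 0.0115, edgeR), the latter call being lost without Ptpn11D61Y/+ replicate 1 (adjusted p = 0.186). The difference between S3 and Ptpn11D61Y/+ spleens was 0.12, with a 95% interval from -0.52 to 0.75. BM CD11b+ cells held Cd44 at 9.59 and 8.45 log2 CPM in MxCre, 8.52 and 8.47 in Ptpn11D61Y/+, and 8.68, 8.78 and 8.64 in S3, where only MxCre replicate 1 stood out. In that library monocyte and macrophage markers, led by C1qa, summed to 17960 CPM against at most 6848 in the other BM CD11b+ libraries, and stromal and endothelial markers, led by Cxcl12, to 399.1 against at most 101.6, with no marker of either list at 0. Their part in its levels was not tested.

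Cxcr4 and Cd44 were the only 2 of the 9 members called in the S3 spleens, beside 4.19% of all 19555 genes, and both were lower, a direction in which 2.67% of all genes were called. The median of the 9 members was -0.65 on the log2 scale and the median of all genes was 0.32. In the Ptpn11D61Y/+ spleens 3 of 9 members were called, all lower, beside 5.11% of all genes called in either direction and 3.02% called lower, and 0 of 9 without Ptpn11D61Y/+ replicate 1, the spleen library whose sex-linked transcripts differed from the LSK and BM libraries of that number. These 2 comparisons share the MxCre libraries, so that a high value in those libraries enters both. Between S3 and Ptpn11D61Y/+ spleens, which do not use them, 0 of 9 members were called by edgeR, beside 0.00511% of all genes, while 2 had an unadjusted p under 0.05, as 8.88% of all genes did, and DESeq2 called 0 members, beside 2.07% of the genes it tested. The calls of Cxcr4 and Cd44 in S3 were kept when any 1 spleen library was left out. Both were lost when only the 5 libraries compared were fitted (adjusted p = 0.109 and 0.146, edgeR), though the differences stayed about as large, at -2.66 and -1.93. Both were also lost when the mean of both controls took the place of MxCre (adjusted p = 0.106 and 0.141, edgeR), where the differences shrank to -1.50 and -0.87. Without the 3 libraries that held Xist and Y-linked counts the falls were 2.81 and 1.87 on the log2 scale, with adjusted p = 0.0158 and 0.0118 (edgeR).

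**Figure D3:**
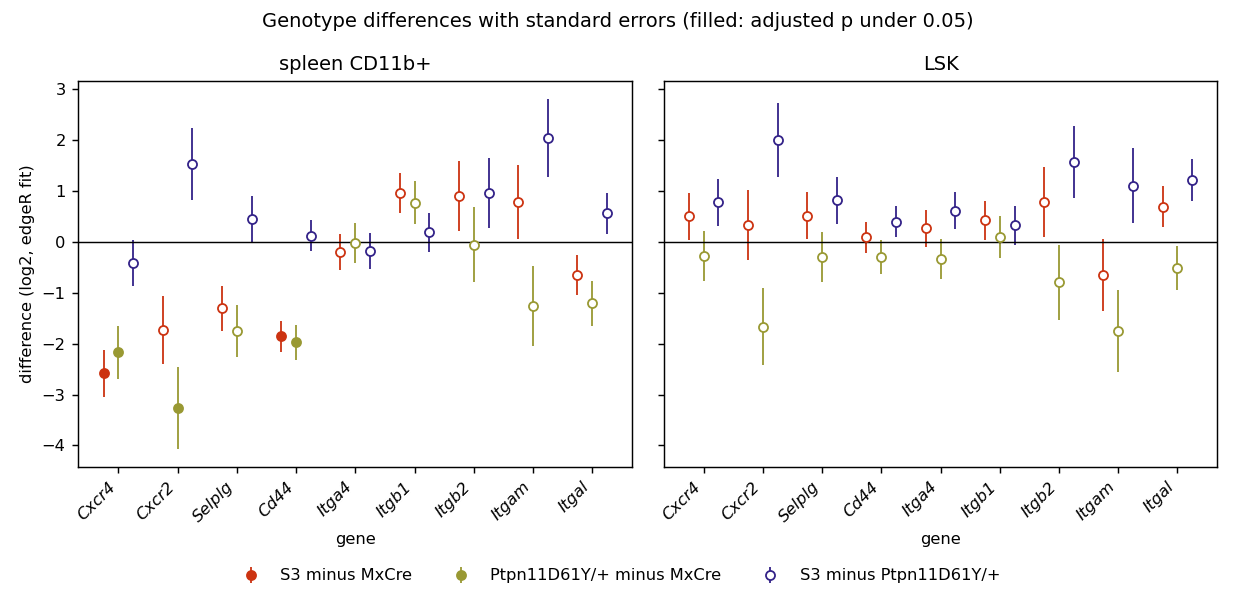
Log2 differences between genotypes in spleen CD11b+ cells and in LSK cells from the edgeR fit of all 21 libraries, bars giving the standard error and filled points an adjusted p under 0.05. In spleen Cxcr4 and Cd44 lie between -1.86 and -2.59 against MxCre in both other genotypes and at -0.41 and 0.12 between those genotypes, and in LSK cells no point is filled.

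Among the comparisons of genotypes in spleen, Cxcr2 was called only for Ptpn11D61Y/+ against MxCre in the fit of all libraries. It read 7.92 and 9.60 log2 CPM in MxCre, 4.70 and 6.33 in Ptpn11D61Y/+ and 7.96, 6.55 and 6.85 in S3 spleens, which places all of Ptpn11D61Y/+ below both other groups. It fell by 3.26 on the log2 scale against MxCre (SE 0.81, 9.59-fold, adjusted p = 0.0329, edgeR). The call was lost without MxCre replicate 2 and without either Ptpn11D61Y/+ library. The difference was then -2.18 without MxCre replicate 2, -2.63 without Ptpn11D61Y/+ replicate 1 and -4.29 without Ptpn11D61Y/+ replicate 2. Mature neutrophil markers were low in the same libraries, as given above, and 8 of the 12 markers were called lower in this comparison. Cxcr2 in the S3 spleens differed from MxCre by -1.74 with overlapping libraries and was not called (adjusted p = 0.128, edgeR), with -0.65 without MxCre replicate 2 and -0.11 against the mean of both controls.

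Selplg gave 9.60 and 11.08 log2 CPM in the MxCre spleens, 9.56, 8.94 and 9.06 in the S3 spleens and 8.23 and 9.16 in the Ptpn11D61Y/+ spleens. MxCre replicate 2 alone was far above the rest. The differences of -1.31 for S3 and -1.75 for Ptpn11D61Y/+ missed the threshold (adjusted p = 0.093 and 0.0555, edgeR), and without MxCre replicate 2 the S3 difference shrank to -0.37. DESeq2 called Selplg lower in S3 (adjusted p = 0.0259), and so did edgeR without the 3 libraries with few genes detected (difference -1.86, adjusted p = 0.0092). The same settings called it lower in Ptpn11D61Y/+ (DESeq2, adjusted p = 0.00611; without the few-gene libraries -2.31, adjusted p = 0.00558, edgeR), as did RLE factors (adjusted p = 0.0493, edgeR), the replicate block (adjusted p = 0.0498, edgeR) and leaving out MxCre replicate 1 (adjusted p = 0.0272, edgeR). Without MxCre replicate 2 the Ptpn11D61Y/+ difference shrank to -0.82 (adjusted p = 0.333, edgeR).

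No integrin gene was called in the S3 or Ptpn11D61Y/+ spleens against MxCre by edgeR. Itgb1 stood at 7.43 and 7.25 log2 CPM in the MxCre spleens, 8.03 and 8.18 in Ptpn11D61Y/+ and 8.16, 8.09 and 8.59 in S3, with both MxCre libraries lowest. The S3 difference was 0.95 with a 95% interval from 0.12 to 1.79 and was not called (adjusted p = 0.151, edgeR). Itgal, the LFA-1 α chain, was highest in the MxCre spleens, at 9.05 and 9.28 log2 CPM against between 8.21 and 8.97 in S3 and 7.59 and 8.25 in Ptpn11D61Y/+, without overlap as for Cxcr4 and Cd44. Its differences of -0.65 in S3 and -1.21 in Ptpn11D61Y/+ missed the threshold (adjusted p = 0.301 and 0.108, edgeR). Under the alternatives, none of which called Itgal, they ran from -0.94 to -0.044 in S3 and from -1.58 to -0.60 in Ptpn11D61Y/+. Itga4, Itgb2 and Itgam overlapped between S3 and MxCre spleens. Among the S3 spleens Itgam ranged from 7.53 in animal 815 to 10.70 in animal 640, and Itgb2 from 8.76 to 10.67 in the same animals.

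In BM CD11b+ cells no member was called between genotypes by edgeR, beside 0% of all genes in each of the 3 genotype comparisons. An unadjusted p under 0.05 was reached by 2 of 9 members for S3 against MxCre, by 0 for S3 against Ptpn11D61Y/+ and by 2 for Ptpn11D61Y/+ against MxCre, beside 15.5%, 8.22% and 22.6% of all genes, and DESeq2 called 0 members in each, beside 5.40%, 1.68% and 10.7% of the genes it tested. Cxcr4 gave 9.79 and 8.65 log2 CPM in MxCre, 9.17 and 9.27 in Ptpn11D61Y/+ and 8.57, 8.68 and 7.74 in S3 animals 540, 815 and 640. All 3 S3 libraries lay below both Ptpn11D61Y/+ libraries and overlapped MxCre, with a difference from MxCre of -0.94 (SE 0.45, adjusted p = 0.326, edgeR) that was -0.26 without MxCre replicate 1. Itgb1 was the only member whose S3 and MxCre libraries did not overlap: 6.46 and 6.48 log2 CPM in MxCre against 7.43, 6.50 and 8.46 in S3 (difference 1.21, adjusted p = 0.222, edgeR), where 11.2% of all genes were without overlap. Without animal 815 Itgb1 was called (1.57, adjusted p = 0.0464, edgeR), and without animal 640 its difference shrank to 0.57. Animal 640 was highest in Itgb1, Itgb2 (10.40 log2 CPM) and Itgal (8.78) of all BM CD11b+ libraries and lowest in Cxcr2 (5.55). Its mature neutrophil markers summed to 29770 CPM, against at least 99490 CPM in every other BM CD11b+ library.

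In LSK cells S3 lay above Ptpn11D61Y/+ in all 9 members without overlap, beside 32.0% of all genes. Cxcr4 gave 6.13 and 6.32 log2 CPM in MxCre, 6.13 and 5.75 in Ptpn11D61Y/+ and 6.76, 6.75 and 6.67 in S3 animals 540, 815 and 768, so that S3 was above both controls. Itgal gave 7.33 and 7.20 in MxCre, 6.65 and 6.85 in Ptpn11D61Y/+ and 7.58, 8.22 and 7.99 in S3, again with S3 on top. Cxcr2 was near the bottom of the range everywhere, at 3.49 and 3.81 in MxCre, 1.71 and 2.25 in Ptpn11D61Y/+ and 3.58, 4.15 and 4.17 in S3.

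These LSK differences were small against the spread that the fit of all 21 libraries estimates. Of the 9 members 0 were called by edgeR for S3 against MxCre, beside 0.0307% of all genes, 0 for S3 against Ptpn11D61Y/+, beside 0.0972%, and 0 for Ptpn11D61Y/+ against MxCre, beside 0.0614%. An unadjusted p under 0.05 was reached by 0, 3 and 2 members, beside 3.97%, 5.74% and 1.69% of all genes, and DESeq2 called 0 members in each, beside 0.800%, 1.39% and 0.589% of the genes it tested. When only the LSK libraries compared were fitted, 8 of 9 members, all but Itgam, were called higher in S3 than in Ptpn11D61Y/+ cells, with 29.2% of all genes called. The sizes in that fit ran from 0.27 for Itgb1 (adjusted p = 0.048, edgeR) to 1.94 for Cxcr2 (adjusted p = 0.00847, edgeR), with 0.72 for Cxcr4 and 1.15 for Itgal. Against MxCre 2 members were then called higher in S3, Cxcr4 by 0.46 (adjusted p = 0.0131, edgeR) and Itgb1 by 0.39 (adjusted p = 0.0158, edgeR), with 26.8% of all genes called. In Ptpn11D61Y/+ against MxCre LSK cells 6 members were called in the fit of these 4 libraries, all lower, with 14.2% of all genes called. Itgam fell by 1.74 there (adjusted p = 4.391e-05, edgeR) and Cxcr2 by 1.65 (adjusted p = 0.00459, edgeR).

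The sums of several marker lists were apart between the genotypes in LSK cells. Mature neutrophil markers summed to 2896 and 2428 CPM in MxCre, 255.1 and 181.8 in Ptpn11D61Y/+ and 692.1, 1462 and 935.2 in S3 animals 540, 815 and 768. S100a9 led the list in all 7 libraries, and 1 marker was at 0 in each Ptpn11D61Y/+ library. Of the 9 members only Itgam, a myeloid gene, had the same order of genotypes, highest in MxCre, at 6.84 and 6.67 log2 CPM in MxCre, 5.02 and 4.98 in Ptpn11D61Y/+ and 5.40, 6.56 and 6.12 in S3. Of the other 8 members, none of them called, 6 lay above MxCre in S3 without overlap, as 29.1% of all genes did, and Cxcr2 and Cd44 overlapped. Itgb1 stood at 7.64, 7.69 and 7.62 in S3, above the overlapping controls (7.18 and 7.28 in MxCre, 7.38 and 7.28 in Ptpn11D61Y/+). Markers of immature neutrophils, led by Mpo, were likewise highest in S3, at 4999, 4463 and 6187 CPM against 2063 and 1657 in MxCre and 2771 and 2724 in Ptpn11D61Y/+. So were those of eosinophils, basophils and mast cells, at 1743, 1081 and 1293 CPM, led by Prss34, against 299.4 and 269.7 in MxCre and 460.0 and 563.4 in Ptpn11D61Y/+, led by Gata2. Stem and progenitor markers were lowest in S3, at 1554, 1440 and 1358 CPM against between 1914 and 2026 in the controls. B cell markers, led by Ighm, summed to 22830 and 20770 CPM in Ptpn11D61Y/+, 11010 and 5208 in MxCre and between 3306 and 10700 in S3. Erythroid markers summed to 1895 and 1138 CPM in MxCre and between 239.1 and 562.8 in the other genotypes. Hbb-bs led them in MxCre, at 663.0 and 352.1 CPM, and Car2 in the other genotypes, where Hbb-bs lay between 8.97 and 22.16 CPM. Megakaryocyte and platelet markers, led by Itga2b, summed to 681.2 and 568.3 CPM in Ptpn11D61Y/+, 314.1 and 297.3 in MxCre and between 370.8 and 521.0 in S3. Dendritic cell markers summed to 300.7 and 451.1 CPM in Ptpn11D61Y/+, 613.3 and 689.6 in MxCre and between 558.5 and 941.9 in S3. Flt3, also in the stem and progenitor list, led them in Ptpn11D61Y/+ (183.5 and 247.9 CPM) and MxCre (374.7 and 412.2). H2-Ab1 led them in S3. Monocyte and macrophage markers summed to 402.4 and 398.9 CPM in Ptpn11D61Y/+, 885.8 and 743.2 in MxCre and 412.9, 995.7 and 958.0 in S3 animals 540, 815 and 768. Nr4a1 led that list in the controls, at 157.8 and 193.4 CPM in Ptpn11D61Y/+ and 434.6 and 362.6 in MxCre. In S3, Ly6c2 led it in animals 540 and 768 and Csf1r in animal 815. Stromal and endothelial markers, led by Pdgfrb, were lowest in S3, between 41.6 and 47.7 CPM against 68.5 to 130.2 in the controls. Outside the mature neutrophil list no marker matched in these lists was at 0. The part of this makeup in the LSK differences was not tested.

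**Figure D4:**
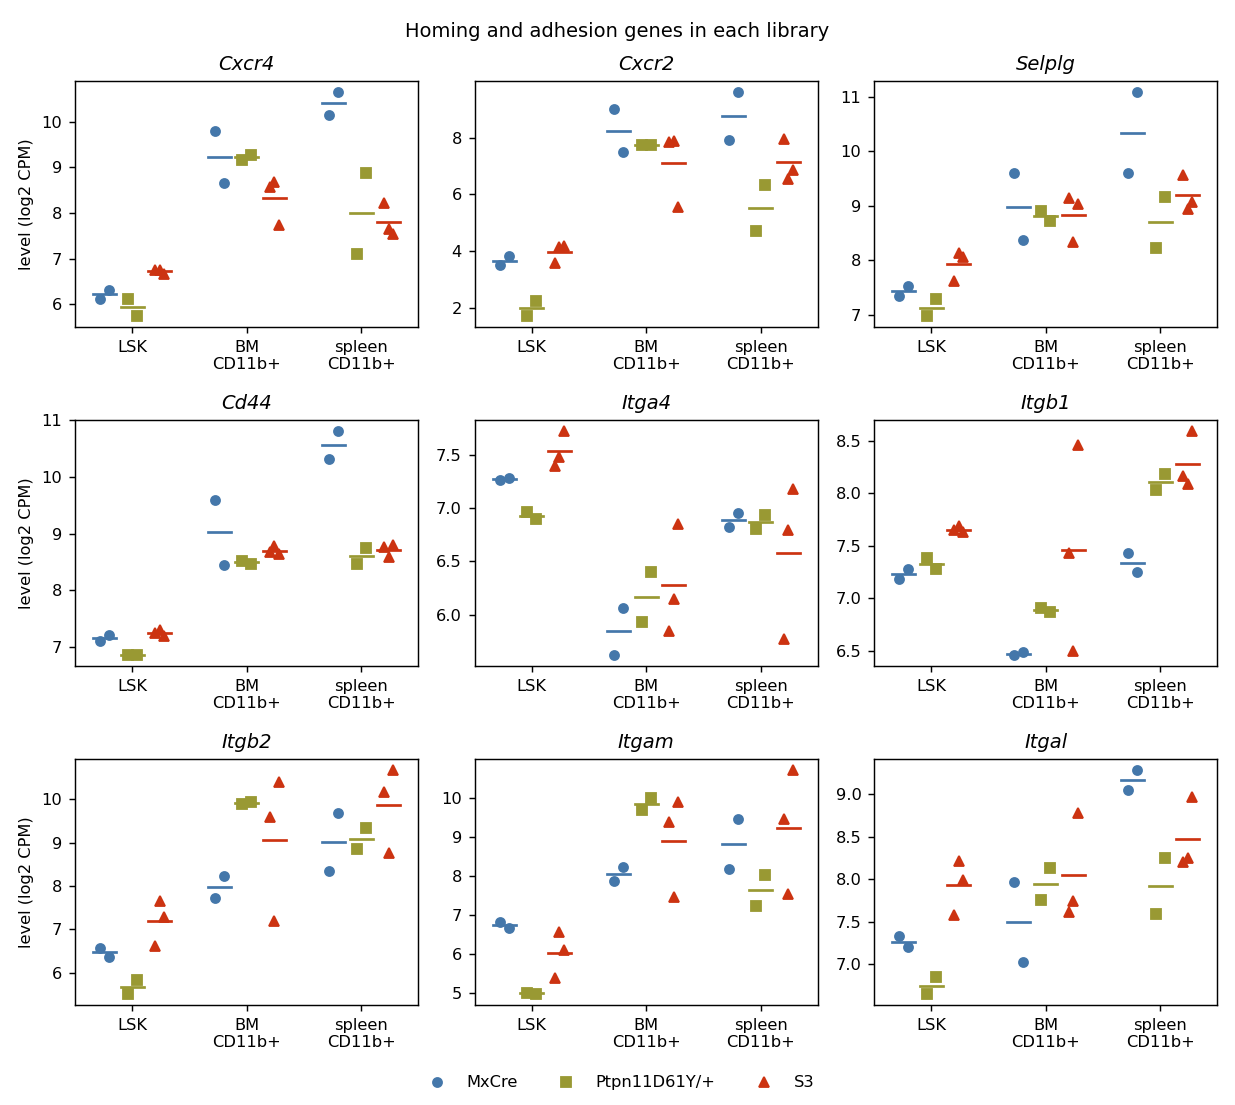
Level in log2 CPM of the 9 genes in each of 21 libraries, by sorted fraction and genotype, with a bar at the group mean. The MxCre spleens stand at 10.16 and 10.65 for Cxcr4 and 10.32 and 10.80 for Cd44, above all other libraries, while the Itga4 group means are highest in LSK cells.

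Spleen CD11b+ cells were compared with BM CD11b+ cells, the same sort from another organ. Averaged over the 3 genotypes Itgb1 was 0.90 higher in spleen on the log2 scale (SE 0.23, 1.87-fold, adjusted p = 0.0171, edgeR) and Itga4 0.69 higher (SE 0.22, 1.62-fold, adjusted p = 0.0423, edgeR), so both chains of VLA-4 passed the threshold. They were 2 of 9 members, beside 14.0% of all genes. Itgal (0.66, adjusted p = 0.0765) and Cd44 (0.53, adjusted p = 0.0626) missed it by edgeR. Cd44 passed with DESeq2 (adjusted p = 0.0433), with library size alone (adjusted p = 0.0360, edgeR) and without BM MxCre replicate 1 (0.75, adjusted p = 0.00361, edgeR), and Itgal without that library or BM S3 640 (adjusted p = 0.0296 and 0.0122, edgeR). Without the 3 libraries with few genes detected Cd44 (0.84, adjusted p = 0.00197), Selplg (0.93, adjusted p = 0.0112) and Itgal (0.82, adjusted p = 0.0456) were called and Itga4 was not (0.62, adjusted p = 0.123, edgeR). Itga4 also lost its call with RLE factors, library size alone, no filter and only the groups compared (0.64, 0.77, 0.70 and 0.67, adjusted p = 0.0636, 0.0828, 0.0634 and 0.155, edgeR). With only the groups compared Itgb1 lost its call as well (0.89, adjusted p = 0.0839, edgeR). With the replicate number as a block Itga4 and Itgb1 kept their calls and Itgal was called too (0.69, adjusted p = 0.0294, edgeR). Without the S3 540 libraries, in the same blocked fit, 0 members were called, with Itgb1 at 0.98 (adjusted p = 0.0527) and Itga4 at 0.75 (adjusted p = 0.0525). Itga4 lost its call when BM MxCre replicate 1 was left out (0.63, adjusted p = 0.0845), as it did without most other single CD11b+ libraries, and the call of Itgb1 was lost without BM Ptpn11D61Y/+ replicate 1 or 2 (adjusted p = 0.0576 and 0.0565) and without the 3 libraries that held Xist and Y-linked counts (0.89, adjusted p = 0.0946).

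Itga4 in BM CD11b+ cells gave 5.62 and 6.06 log2 CPM in MxCre, 5.93 and 6.40 in Ptpn11D61Y/+ and 5.85, 6.15 and 6.85 in S3 animals 540, 815 and 640. In spleen it gave 6.83 and 6.96, then 6.81 and 6.94, then 5.77, 6.80 and 7.18 in the same order of groups and animals. Spleen lay above BM in both controls without overlap, while in S3 the organs overlapped, with the spleen of animal 540 below and the BM of animal 640 near the spleens of the controls. Itgb1 in BM gave 6.46 and 6.48 in MxCre and 6.91 and 6.87 in Ptpn11D61Y/+, below their spleens at 7.43 and 7.25 and at 8.03 and 8.18.

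Within genotypes no member was called between spleen and BM by edgeR, beside 0.915% of all genes in MxCre, 3.69% in Ptpn11D61Y/+ and 0.0563% in S3. An unadjusted p under 0.05 was reached by 5, 3 and 0 members, beside 19.8%, 19.9% and 9.77% of all genes, and DESeq2 called 2, 2 and 0 members, beside 11.1%, 14.3% and 3.08% of the genes it tested. The signs differed by genotype. In MxCre mice all 9 members had a higher mean in spleen, 7 of them without overlap, beside 18.1% of all genes. Cxcr2, one of the 2 that overlapped, was at 0.55 and at -0.51 without spleen replicate 2. Cd44 was 1.45 higher (SE 0.34, adjusted p = 0.0508), Itgal 1.60 higher (SE 0.45, adjusted p = 0.0861) and Cxcr4 1.09 higher (SE 0.50, adjusted p = 0.240), all by edgeR. Without BM replicate 1 Cd44 (2.13, adjusted p = 0.00847, edgeR) and Itgal (adjusted p = 0.0377) were called and Cxcr4 was at 1.77, and without BM replicate 2 Cxcr4 was at 0.64. In Ptpn11D61Y/+ mice Cxcr4, Cxcr2, Itgb2 and Itgam were lower in spleen without overlap, Cxcr2 by 2.0 (SE 0.77, adjusted p = 0.152) and Itgam by 2.16 (SE 0.81, adjusted p = 0.144), and Itga4 and Itgb1 were higher without overlap, where 63.5% of all genes were without overlap. When only these 4 libraries were fitted, 3 of 9 members were called, beside 26.3% of all genes: Itgb1 at 1.19 (adjusted p = 0.0161, edgeR), Cxcr2 at -2.03 (adjusted p = 0.0364) and Itgam at -2.19 (adjusted p = 0.0112). Those spleens were also the ones with few neutrophil transcripts.

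In S3 mice the libraries of both organs come from the same animals by their labels. Cxcr4 was lower in spleen in 3 of 3 animals, by 0.35 in animal 540, 1.03 in animal 815 and 0.19 in animal 640 on the log2 scale. Itgb1 was higher in spleen in 3 of 3, by 0.73, 1.59 and 0.13 in the same order, and Selplg, Itgb2, Itgam and Itgal were also higher in 3 of 3 animals. Cd44 differed by less than 0.20 in each animal, and Cxcr2 went up by 1.31 in animal 640 and down by 1.34 in animal 815. None of these was called: for Cxcr4 the fitted difference was -0.55 with a 95% interval from -1.41 to 0.31, and for Itgb1 it was 0.62 with an interval from -0.11 to 1.35. Without the BM library of animal 640 Itgb1 was called at 1.26 (adjusted p = 0.0289, edgeR), as the 1 member called, and without that of animal 815 it was at 0.26.

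**Figure D5:**
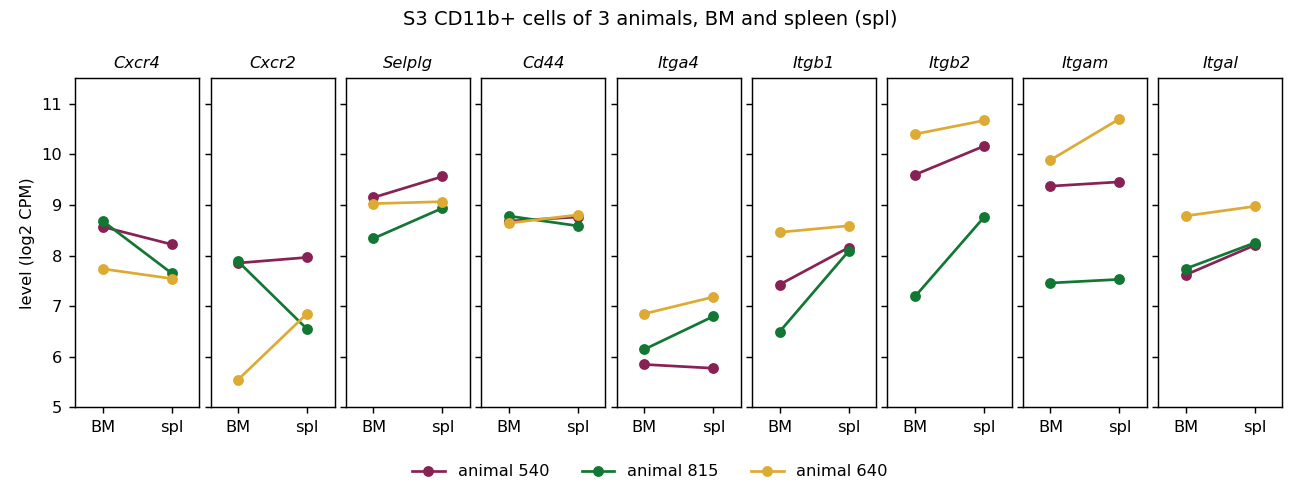
Level in log2 CPM of the 9 genes in BM and spleen CD11b+ cells of S3 animals 540, 815 and 640, a line joining the 2 libraries of an animal. Cxcr4 goes down and Itgb1 up in all 3 animals, and Cd44 moves by less than 0.20.

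Whether the difference between S3 and MxCre was itself different between fractions was tested as an interaction. No member passed by edgeR in any of the 3 contrasts, beside 0%, 0% and 0.00511% of all genes for spleen against BM, BM against LSK and spleen against LSK. For spleen against BM, the S3 difference of Cd44 was 1.43 lower in spleen (SE 0.43, adjusted p = 0.287) and that of Cxcr4 1.64 lower (SE 0.65, adjusted p = 0.382). For spleen against LSK these values were -1.95 (SE 0.43, adjusted p = 0.0992) and -3.08 (SE 0.66, adjusted p = 0.0925). The members with an unadjusted p under 0.05 numbered 3, 1 and 5 of 9 in the 3 contrasts, beside 10.7%, 8.12% and 13.4% of all genes, and DESeq2 called 1, 0 and 2 members, beside 2.96%, 0.789% and 4.73% of the genes it tested.

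CD11b+ cells were compared with LSK cells of the same genotype. Itgam is the antigen of the sort and is left out of these counts. Of the other 8, 5 were called in BM CD11b+ against LSK cells in MxCre, 5 in Ptpn11D61Y/+ and 5 in S3, beside 36.9%, 19.7% and 27.1% of all genes. In spleen CD11b+ cells 6, 5 and 4 of 8 were called, beside 41.6%, 18.1% and 27.4%. Single libraries bore on these counts: with Itgam included, 6 members were called in Ptpn11D61Y/+ spleens and 1 without LSK replicate 1, LSK replicate 2 or spleen replicate 2. In MxCre the count went from 7 to 4 in spleen without LSK replicate 2, and from 5 to 3 in BM without LSK replicate 1 or 2 or BM replicate 1. S3 animals 540 and 815 are labelled in all 3 fractions, and with the animal as a replicate block Itgb2 lost its call in BM (1.22, adjusted p = 0.193, edgeR), Selplg lost its call in spleen (1.25, adjusted p = 0.101) and Itga4 was called lower in spleen (-1.14, adjusted p = 0.00894). Among these 8 genes Cxcr2 had the largest difference in all 6 comparisons, from 3.27 in S3 spleens (SE 0.66, adjusted p = 0.00233, edgeR) to 5.74 in Ptpn11D61Y/+ BM (SE 0.91, adjusted p = 0.00054, edgeR). Cd44 was called higher in all 6, by 1.45 to 3.42. Over the alternatives its BM differences went down to 0.90 in MxCre, 0.75 in Ptpn11D61Y/+ and 0.84 in S3. Its call was lost in Ptpn11D61Y/+ BM without LSK replicate 2 (adjusted p = 0.0553, edgeR) or with library size alone (adjusted p = 0.105), and in MxCre BM with only the groups compared (adjusted p = 0.0672). Cxcr4 was higher in all 6 and called in 5, by 4.19 in MxCre spleens (SE 0.56, adjusted p = 0.000127, edgeR), while in S3 spleens its 1.11 missed the threshold (SE 0.41, adjusted p = 0.0543, edgeR). It passed with DESeq2 (adjusted p = 0.0437), with only the groups compared (adjusted p = 0.0150, edgeR) and without the spleen of animal 640 (adjusted p = 0.0427, edgeR). Itga4 ran the other way. It was called lower in BM CD11b+ cells of MxCre (by 1.42, adjusted p = 0.0144, edgeR) and S3 mice (by 1.20, adjusted p = 0.0145, edgeR), calls lost without LSK MxCre replicate 1 or 2 or BM MxCre replicate 1 (adjusted p = 0.0591, 0.0598 and 0.102), and without BM S3 540 or LSK S3 768 (adjusted p = 0.0649 and 0.0548). Itgb1 was called in none of the 6 in the fit of all libraries by edgeR, with values from -0.76 to 0.78. Those of S3 BM and MxCre spleens changed sign with the scaling. With library size alone Itgb1 was called lower in MxCre BM (-1.82, adjusted p = 0.0173, edgeR), and 1 of 11 alternatives called it lower in Ptpn11D61Y/+ BM.

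The order of the 9 group means differed by gene. Cxcr4, Cxcr2, Selplg, Cd44 and Itgal were highest in MxCre spleens, and in all of these but Cxcr2 the next group lay wholly below: BM CD11b+ cells of Ptpn11D61Y/+ mice for Cxcr4 and of MxCre mice for Cd44, and spleen CD11b+ cells of S3 mice for Selplg and Itgal. For Cxcr4, 4 of the 8 neighbouring pairs of groups in the order overlapped, for Cd44 5, for Itgb1 5, and for Cxcr2, Itga4 and Itgal 6 each. The 3 LSK groups took the lowest places for Cxcr4, Cxcr2, Selplg, Cd44, Itgb2 and Itgam, and the highest for Itga4.

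Over the 14 CD11b+ libraries Itgb2 and Itgam, the chains of Mac-1, varied together with a Pearson r of 0.85, as did Selplg and Cd44 at 0.85 and Cxcr4 and Cxcr2 at 0.82. Itga4 and Itgb1, the chains of VLA-4, had an r of 0.62, and Itgb2 and Itgal, the chains of LFA-1, one of 0.42. Pairs that form no dimer reached like values, such as Itga4 with Itgal at 0.65 and Itgb1 with Itgb2 at 0.64, and Itgb1 ran against Cxcr2 at -0.62. These values describe libraries that also differ in genotype, depth and cell makeup. Values over all 21 libraries also hold the difference between LSK and CD11b+ cells. Cxcr4 with Itgb2 gave 0.60 over all 21 and -0.24 over the 14 CD11b+ libraries, whereas Itgb2 with Itgam gave 0.935 and 0.853. Over all 21 libraries the genes most like Cxcr2 among 8774 genes compared were the chemokine receptor gene Ccr1 (r = 0.984), Cebpd (r = 0.979), a transcription factor of myeloid cells, and Slc16a3 (r = 0.977). Cd44 went closest with Irak2 (r = 0.979), a kinase of interleukin-1 receptor signalling, Dync1li1 (r = 0.979) and Ptafr (r = 0.976), the receptor of platelet-activating factor. Cxcr4 was closest to Zfp622 (r = 0.963), Itgb2 to Nkiras2 (r = 0.986), Itgam to Xdh (r = 0.971), Selplg to Fxyd5 (r = 0.952), Itgb1 to Fyn (r = 0.953), Itgal to Dpep2 (r = 0.899) and Itga4 to Sbf1 (r = 0.897).

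Another 129 genes of homing and adhesion, grouped by role in 9 lists, were set beside the members, and 128 of them were tested. In S3 against MxCre spleens 1 was called higher and 5 lower, that is 4.69% of them beside 4.19% of all genes. Among the other chemokine and egress receptors 1 of 18 was called higher and 2 lower: C5ar1, the receptor of complement C5a, fell by 2.79 (SE 0.59, adjusted p = 0.0185, edgeR) and Ccr1 by 2.58 (SE 0.66, adjusted p = 0.0385, edgeR). Of 13 genes of marrow retention and release 2 were lower: Csf3r, the G-CSF receptor, by 3.49 (SE 0.69, adjusted p = 0.0137, edgeR) and Grk2, a kinase that desensitizes CXCR4 and other receptors, by 1.38 (SE 0.32, adjusted p = 0.0265, edgeR). Tpst2, an enzyme that sulfates PSGL-1, was the 1 of 15 selectin genes called, lower by 1.13 (SE 0.28, adjusted p = 0.0357, edgeR). Chemokine ligands, integrin subunits, integrin activators, integrin ligands, junctional molecules and cytoskeletal linkers had 0 calls in this comparison. Against the same MxCre spleens, 2 of the 128 genes were called higher in Ptpn11D61Y/+ spleens and 11 lower, that is 10.2% beside 5.11% of all genes. Between S3 and Ptpn11D61Y/+ spleens 0 of them were called, beside 0.00511% of all genes. In LSK cells Mmp9 and Mmp8 fell by 5.06 and 5.33 in S3 against MxCre (adjusted p = 0.00256 and 0.0240, edgeR). Both are granule enzymes of neutrophils and are also in the list of mature neutrophil markers.

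Between spleen and BM CD11b+ cells, averaged over genotypes, 16 of 128 of these genes were called higher in spleen and 16 lower, or 25% of them beside 14.0% of all genes. Of 16 other integrin subunits 3 were higher and 2 lower: Itgax, the CD11c chain, rose by 2.79 (SE 0.48, adjusted p = 0.00192, edgeR), Itga9 by 1.80 and Itgb5 by 1.30, while Itgb2l fell by 1.68. Icam1, the ligand of LFA-1 and Mac-1, rose by 2.25 (SE 0.40, adjusted p = 0.00233, edgeR), and Spp1 fell by 2.13 (osteopontin, a ligand of CD44 and integrins). Integrin activators had 4 of 18 higher, among them Fyb by 1.12, Syk by 0.80 and Rap1a by 0.58, and 1 lower. Marrow retention and release had 5 of 13 lower, led by the neutrophil proteases Ctsg (by 4.16) and Elane (by 3.79), and 1 higher, Rgs1 (by 2.03), a brake on chemokine receptor signalling. Of the selectin genes Fut4 (1.43) and St3gal4 (0.91) rose, and Cd24a (by 1.83) and B4galt1 (by 0.75) fell. F11r and Pecam1, both junctional, rose by 2.85 and 0.90, and Cd177 fell by 1.47, while Ltb4r1 fell by 1.63. All 7 markers of immature neutrophils and 10 of 12 of mature neutrophils were lower in spleen in this comparison, and 7 of 17 monocyte and macrophage and 6 of 8 dendritic cell markers were higher. All 12 erythroid markers tested were lower in spleen too. They summed to between 14880 CPM, in animal 640, and 224900 CPM in BM libraries and to between 1162 and 30610 CPM in spleen libraries, with animal 640 alone higher in spleen. The part of this makeup in the differences between organs was not tested. Elane and Ctsg are among those immature markers and Itgax among those of dendritic cells.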

How the data were processed

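The authors deposited 1 table of raw counts per Ensembl gene for each of 21 libraries, without normalization. Per the labels and the methods, RNA (RNeasy Micro kit, TruSeq Stranded mRNA library kit, paired-end) was demultiplexed with bcl2fastq 2.20.0.422, checked with FastQC 0.11.9, trimmed with Trim Galore 0.6.5 and mapped to GRCm38/mm10 with STAR 2.5.3a. The counting program, annotation release and use of strand are not given in the sources used here, so genes that overlap others may share reads.

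The counts went into edgeR 4.0.16 under R 4.3.3. After filterByExpr (9 groups, minimum count 10, minimum total 15) and TMM scaling, genes were fitted in 1 robust quasi-likelihood model with a coefficient per group and 12 residual degrees of freedom. Adjusted p-values are Benjamini-Hochberg over 19555 genes, with 0.05 as the threshold, and called means past it. For levels in log2 CPM the prior count was 2, and CPM per kb used union exon lengths (GENCODE M21). The script was tested on simulated data. Libraries are labelled as separate samples, and p-values measure the spread between them. The members and lists were chosen with earlier results of these data known. Named list genes are the up to 4 called genes per list with the largest change and a mean of at least 3 log2 CPM. The genes most alike are those with the highest Pearson r among genes of that mean. The marker symbol Ahsp was not matched.

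Alternatives were RLE factors, library size alone, no filter, DESeq2 1.42.0, a fit of only the groups compared, leaving out each library, leaving out 3 libraries with few genes detected, the mean of both controls and a replicate block. Leaving out 3 libraries with Xist and Y-linked counts, the block without S3 540 and a block with crossed BM numbers were added after seeing the data. S3 BM and spleen libraries deviated together from their group means in animals 815 and 640 (correlations 0.407 and 0.333). In animal 540 the value was 0.108, near those of its LSK library with BM (0.0723) and with spleen (0.0865). The pairing of S3 BM and spleen libraries comes from the animal numbers in the labels. LSK libraries of S3 animals and the controls showed no such pairing throughout.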

Additional observations from a re-analysis of the deposited data

How the results depend on the processing

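The number of members called out of 9 moved by more than 1.5 times in these settings. Fitting only the groups compared gave 2, 8 and 6 in LSK cells for S3 against MxCre, S3 against Ptpn11D61Y/+ and Ptpn11D61Y/+ against MxCre (each 0 in the fit of all libraries), 0 in spleen for S3 and for Ptpn11D61Y/+ against MxCre, 3 for spleen against BM in Ptpn11D61Y/+, 0 for spleen against BM over genotypes and 1 for the S3 difference between spleen and LSK. DESeq2 gave 2 for spleen against BM in MxCre, 2 in Ptpn11D61Y/+, and 1 and 2 for the S3 difference of spleen against BM and LSK. Leaving out the 3 libraries with few genes gave 3 for spleen against BM in MxCre, 4 over genotypes, and 1 and 3 for those S3 differences. Over genotypes RLE factors gave 1, no filter 1, and leaving out the libraries with Xist and Y-linked counts 1. With the mean of both controls 0 were called in S3 spleens. The cause was not tested.

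With 1 library left out, the members called ranged from 0 to 0 in all LSK genotype comparisons, all S3 against Ptpn11D61Y/+ comparisons and the S3 differences between fractions, from 0 to 1 for S3 and for Ptpn11D61Y/+ against MxCre in BM, from 2 to 2 for S3 and 0 to 4 for Ptpn11D61Y/+ against MxCre in spleen, and for spleen against BM from 0 to 2 in MxCre, 0 to 0 in Ptpn11D61Y/+, 0 to 1 in S3 and 0 to 3 over genotypes. Against LSK cells the range, Itgam included, was 3 to 5, 4 to 5 and 5 to 6 for BM and 4 to 7, 1 to 5 and 4 to 7 for spleen in MxCre, Ptpn11D61Y/+ and S3.

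Of 198 member results, 102 were called in some setting or have their value in the text. Under all alternatives 1075 of their values kept direction and side of the threshold, 102 lost a call, 79 gained one and 17 reversed. Cd44 in BM of Ptpn11D61Y/+ against MxCre went from -0.64 to 0.059 without the 3 libraries with few genes (-1.08 to 0.060 with 1 library left out). Itgb1 against LSK in S3 BM (0.027) gave -0.43 with library size alone, -0.022 with no filter and -0.50 with the replicate block (-0.61 to 0.38 with 1 library left out), and in MxCre spleens (0.11) -0.025 with RLE factors and with DESeq2, -1.02 with library size alone and -0.16 with only the groups compared (-0.0016 to 0.18 with 1 library left out). Between S3 and Ptpn11D61Y/+ spleens Cd44 (0.12) gave -0.053 with library size alone (-0.018 to 0.27 with 1 library left out), and Cxcr4 ranged from -1.04 to 0.74 with 1 library left out. Cxcr2 between MxCre organs (0.55) gave -0.010 without the libraries with Xist and Y-linked counts (-0.51 to 1.52 with 1 library left out). The other 96 results, never called, changed sign in 102 of 1328 values, 54 of them with 1 library left out, all at a size of at most 0.79.

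With the replicate block, 3 members were called for spleen against BM over genotypes and 0 with S3 540 also left out. In the S3 animals, the pairing the labels give, the block called 0 for spleen against BM. The controls share only a number. There the block gave 4 in spleen for Ptpn11D61Y/+ against MxCre, adding Selplg (-1.65, adjusted p = 0.0498), and moved all genes called from 1000 to 531. The BM numbers of Ptpn11D61Y/+ were also crossed, which gave 427 genes for spleen against BM (722 without a block) and 4262 for BM against LSK (3844 without). S3 and control libraries share no numbers, so no block could be fitted for the differences between them within a fraction. The values given for the S3 differences between fractions come from the fit without a block.

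All genes called rose from 819 to 3409 in S3 and from 1000 to 3381 in Ptpn11D61Y/+ spleens against MxCre with DESeq2, and fell to 0 and 272 with only the groups compared and to 495 and 667 without the filter. In LSK cells they rose from 6, 19 and 12 to 128, 248 and 103 with DESeq2. The intervals given are those of the fit of all libraries, and LSK differences inside them were called when only the groups compared were fitted.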
